A study of Sus scrofa domesticus with 4 samples.

Results

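The swine leukocyte antigens (SLA) are the pig's major histocompatibility complex, and the genes described here encode them together with proteins that supply or hold their peptides. The set was fixed as 10 named pig genes, and its members were the non-control probes of the arrays that carry a RefSeq mRNA of one of those genes. Found were 8 of the 10 genes, among 3029 genes with a symbol on the array, and 32 of 43603 probes, since no probe carried a RefSeq mRNA of SLA-1 or SLA-2, which were not analysed here. All 32 probes were well above background and were tested, among 19879 probes tested in all.

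The study cultured slices of uterine muscle (myometrium) from Large White x Polish Landrace gilts in pregnancy (gestation days 15 to 16). The animals were 7 to 8 months old and weighed 120 to 130 kg. Treated slices received 10 nM of orexin B (OXB), a neuropeptide ligand of the orexin receptors, for 24 h after 2 h of preincubation, and untreated slices were kept in the same medium without it. The slices came from 4 gilts in 4 separate experiments with duplicate cultures, and each of the 4 arrays (Agilent, 2 colours) compared treated with untreated RNA. By the dye fields of the labels, Cy5 marked the orexin B RNA of arrays 1 and 3, while arrays 2 and 4 had it in Cy3. The protocol text names only the first of these orientations, whereas the deposited table of log2 ratios had its sign turned on arrays 2 and 4, so that about 99.98% or more of its values matched orexin B over untreated by those dye fields on every array. Every ratio is a log2 ratio of orexin B over untreated. A p-value here reflects only scatter over the 4 arrays, whose number limits the precision. That scatter is the probe's own, drawn by the test (limma) partly toward that of all tested probes.

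SLA class I molecules sit on most nucleated cells and show peptides from the cell's own proteins to cytotoxic T cells. Each pairs a heavy chain with beta-2-microglobulin, and its peptides are cut by the proteasome and pumped into the endoplasmic reticulum by the TAP transporter. Class II molecules pair an alpha with a beta chain and are guided by the invariant chain CD74. They show peptides from engulfed material on cells such as macrophages, dendritic cells and B cells. Interferons are well-known inducers of both classes, and the pig conceptus releases interferons around the time of implantation.

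The array as a whole set the background for these genes. In limma's test 0% of the 19879 probes had an adjusted p under 0.05, and 0.596 was the smallest. Unadjusted p-values under 0.05 were found for 7.72% of all tested probes, namely 4.31% with a ratio above 0 (856) and 3.41% with one below 0 (678). With median centring in place of loess these were 172 above and 5 below, and without array 4 they were 452 and 274. A mean above 0 was found for 54.1% of all tested probes and for 54% of the 1979 tested genes with a symbol. Across probes, which are not replicates, r was 0.14 between arrays 1 and 3 and 0.36 between arrays 2 and 4, and lay between -0.18 and 0.14 for pairs of opposite orientation.

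All 8 measured genes had a mean log2 ratio above 0, and so did each of their 32 probes, although with median centring B2M and TAP1 were at -0.012 and -0.0081. Gene means ran from 0.034 for TAP1 to 0.52 for SLA-DRA with a median of 0.29, against a median of 0.018 over the 1979 named genes. No member passed the adjusted threshold in limma's test, with adjusted p-values between 0.596 and 0.994. At an unadjusted p under 0.05 there were 13 of the 32 probes, all with ratios above 0, where 4.31% of all tested probes were. They lay in 4 of the 8 genes, namely 5 probes of SLA-DRA, 3 of SLA-DQA1, 3 of SLA-3 and 2 of SLA-5. A probe of this kind was found for 8.59% of the named genes. Probes of a gene share their target and are not replicates, and SLA-3, SLA-DRA and SLA-DQA1 had 7 probes each and so more chances than most genes. The count of 13 was 0 without array 1, 6 without array 2, 20 without array 3 and 5 without array 4, and it was 0 with median centring and 6 with Agilent's processed ratio. On all 4 arrays above 0 were 10 of the 32 probes, against 8.92% of all tested probes, and 3 of the 8 genes, against 9.7% of named genes. The orexin B and untreated channels overlapped for all 8 genes, and 1.16% of all tested probes had the orexin B channel wholly above the untreated one.

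**Figure D1:**
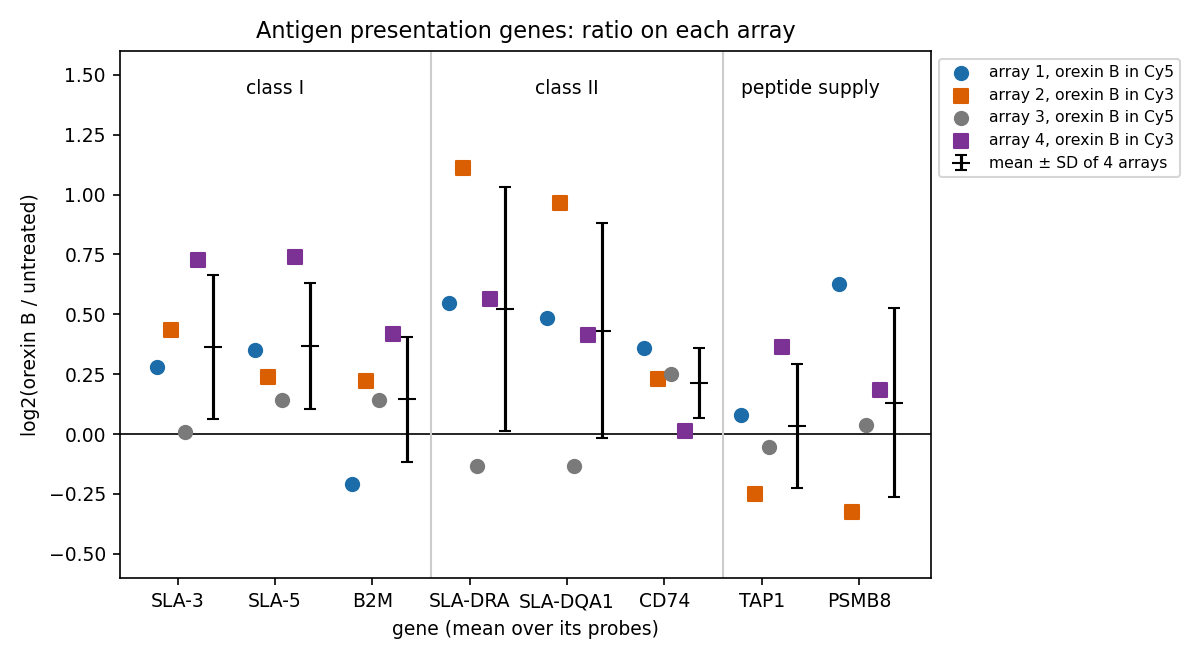
Log2 ratio of orexin B over untreated (y axis) for each gene (x axis) on arrays 1 to 4. Circles mark arrays with orexin B in Cy5, squares those with it in Cy3, and black bars give the mean ± SD of 4 arrays. SLA-3, SLA-5 and CD74 lie above 0 on all 4 arrays, while SLA-DRA and SLA-DQA1 lie above 0 on arrays 1, 2 and 4 and at -0.13 each on array 3.

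Among the class I genes, both measured heavy chains had gene means above 0 on every array, and the light chain had a smaller mean. On array 3 the class I signal was near 0 by probe, with 5 of the 10 usable probes above 0 and a probe median of -0.0043. SLA-3, a classical class I heavy chain, had normalized log2 intensities of 14.66, 16.24, 15.23 and 15.51 in orexin B slices on arrays 1 to 4, against 14.42, 15.70, 15.22 and 14.80 in untreated slices. The orexin B value was the higher on each array, but arrays differed by more than the channels did, and the groups overlapped. These levels average the 6 probes usable on all arrays, and the seventh had a marked spot on array 3 and was fitted on the other 3. Over all usable probes the log2 ratios of SLA-3 were 0.28, 0.44, 0.0068 and 0.73, with a mean of 0.36 ± 0.30 (SD, n = 4). Array 4 had the highest ratio and array 3 one near 0, where 4 of the 6 usable probes were below 0, and the mean was 0.24 without array 4 and 0.21 with median centring. The SLA-3 probe with the smallest p, A_72_P649741, had a log2 ratio of 0.39 ± 0.12 (standard error, limma, adjusted p = 0.596) with a 95% interval of 0.11 to 0.67. All 7 SLA-3 probes had means above 0, from 0.20 to 0.46.

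SLA-5, another class I heavy chain gene, had log2 intensities of 12.38, 13.40, 12.51 and 13.56 in orexin B slices, against 12.03, 13.17, 12.36 and 12.82 in untreated slices on arrays 1 to 4. Orexin B was again the higher on every array with overlapping groups. Its log2 ratios were 0.35, 0.24, 0.14 and 0.74, a mean of 0.37 ± 0.26 (SD, n = 4), or 1.29-fold, which was 0.24 without array 4 and 0.24 with median centring. Its 2 probes had means of 0.36 and 0.37 (limma adjusted p = 0.600 and 0.645). Heavy chain genes are close copies of each other, and the RefSeq gene table lists SLA-1 among the other names of both SLA-3 and SLA-5. RNA of other class I loci on the probes of these genes was not tested, and SLA-3 and SLA-5 should be read as class I heavy chain signal rather than as single loci.

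B2M, the light chain of every class I molecule, had log2 intensities of 16.93, 17.61, 17.14 and 17.18 in orexin B slices, against 17.14, 17.39, 17.00 and 16.76 in untreated slices. It was lower with orexin B on array 1 and higher on the other 3 arrays. The log2 ratios were -0.21, 0.22, 0.14 and 0.42, a mean of 0.14 ± 0.26 (SD, n = 4), so the mean was smaller than the spread between arrays. Its 2 probes had means of 0.061 and 0.23 (limma adjusted p = 0.934 and 0.758). Without 1 array the mean of B2M ran from 0.053 to 0.26.

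**Figure D2:**
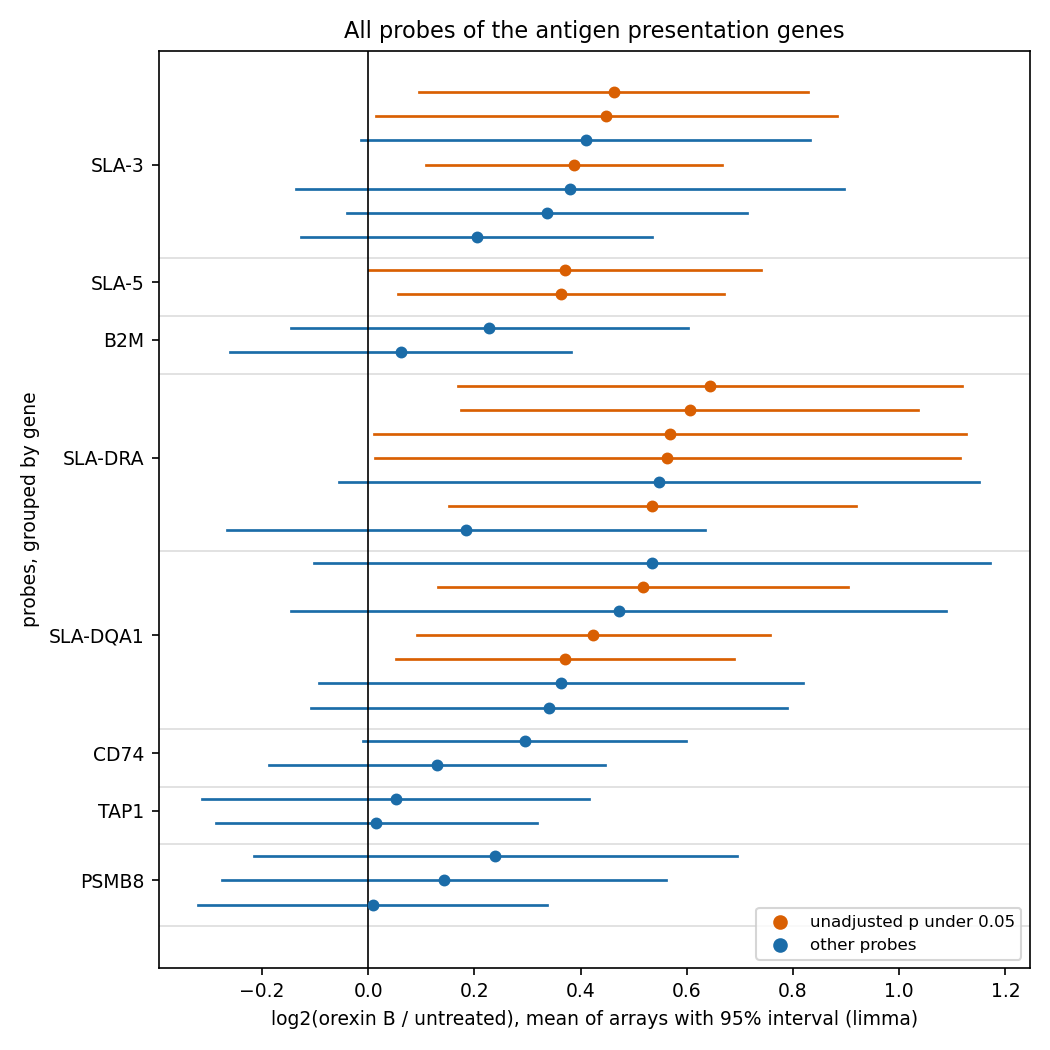
Mean log2 ratio of orexin B over untreated (x axis) of all 32 probes, grouped by gene (y axis), with 95% intervals from limma. Orange marks the 13 probes at an unadjusted p under 0.05, and no probe passes an adjusted p of 0.05. All 32 means lie above 0, from 0.0088 for a PSMB8 probe to 0.64 for an SLA-DRA probe.

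The class II alpha chains had the largest mean ratios of the set, with their highest values on array 2, and both were below 0 on array 3. SLA-DRA, the alpha chain of the DR molecule, had log2 intensities of 12.35, 12.72, 11.10 and 13.00 in orexin B slices, against 11.80, 11.62, 11.24 and 12.44 in untreated slices on arrays 1 to 4. Array 3 was the lowest in both channels and the only one where untreated was the higher. The log2 ratios were 0.55, 1.11, -0.13 and 0.56, a mean of 0.52 ± 0.51 (SD, n = 4), or 1.44-fold. The mean was 0.33 without array 2 and 0.74 without array 3. The SLA-DRA probe with the smallest p, A_72_P571544, had a log2 ratio of 0.61 ± 0.18 (standard error, limma, adjusted p = 0.596), and its 95% interval ran from 0.18 to 1.04. It was above 0 on all 4 arrays, with 0.013 on array 3. The 7 SLA-DRA probes ranged from 0.18 to 0.64, and A_72_P561324, the lowest of them, was at -0.38 on array 1, where the other 6 lay above 0.

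SLA-DQA1, the alpha chain of the DQ molecule, had log2 intensities of 11.35, 11.75, 10.44 and 11.78 in orexin B slices, against 10.86, 10.79, 10.57 and 11.36 in untreated slices. The order of the arrays in the ratio followed SLA-DRA closely, with array 2 the highest and array 3 the only one below 0. Its log2 ratios were 0.48, 0.96, -0.13 and 0.41, a mean of 0.43 ± 0.45 (SD, n = 4), which was 0.25 without array 2 and 0.62 without array 3. The probe with the smallest p, A_72_P750437, had 0.52 ± 0.16 (standard error, limma, adjusted p = 0.596). Its 7 probes had means over the arrays from 0.34 to 0.53 (SD 0.078), while the ratios of the gene on single arrays had an SD of 0.45. On array 2 alone the probes ran from 0.55 to 1.49. The SD among probes within an array was below 0.45 on all 4 arrays.

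CD74, the invariant chain that escorts class II molecules out of the endoplasmic reticulum, had log2 intensities of 9.79, 10.09, 9.31 and 9.89 in orexin B slices, against 9.43, 9.86, 9.06 and 9.87 in untreated slices. It was the class II member above 0 on every array, including array 3. The log2 ratios were 0.36, 0.23, 0.25 and 0.011, a mean of 0.21 ± 0.15 (SD, n = 4). Its 2 probes did not follow each other closely. A_72_P223292 had a mean of 0.29 (limma adjusted p = 0.645) and 0.058 on array 3, while A_72_P796773 had a mean of 0.13 (limma adjusted p = 0.839) and its highest value, 0.44, on array 3.

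**Figure D3:**
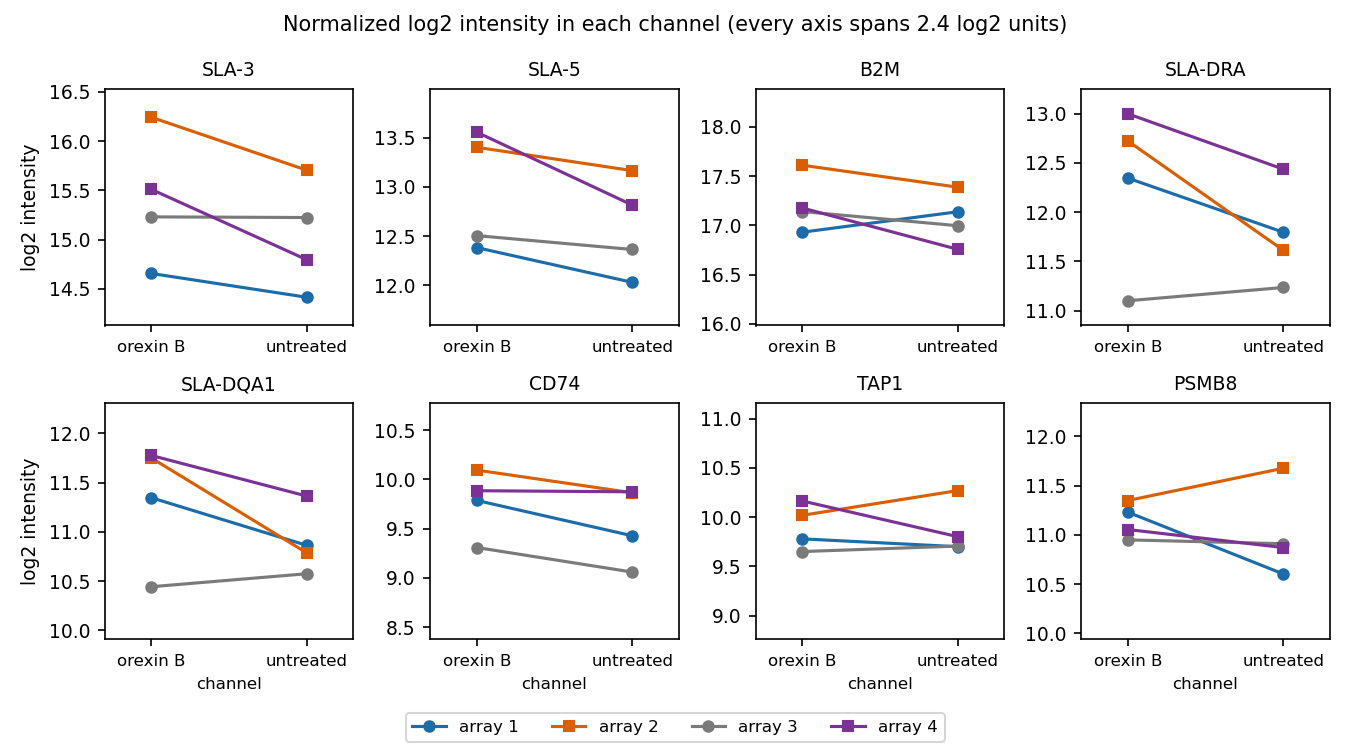
Normalized log2 intensity (y axis) of each gene in the orexin B and untreated channels (x axis), with a line for each array; circles mark arrays 1 and 3, squares arrays 2 and 4. The orexin B and untreated values overlap for all 8 genes, and array 3 is lowest in both channels for SLA-DRA, SLA-DQA1 and CD74.

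The genes of peptide supply had the smallest mean ratios, and TAP1 had the least even direction of the set. TAP1, a subunit of the peptide transporter, had log2 intensities of 9.78, 10.02, 9.65 and 10.16 in orexin B slices, against 9.70, 10.27, 9.71 and 9.80 in untreated slices. It was above 0 on arrays 1 and 4 and below 0 on arrays 2 and 3. The log2 ratios were 0.079, -0.25, -0.056 and 0.36, a mean of 0.034 ± 0.26 (SD, n = 4), and the mean was -0.076 without array 4. Its probes had adjusted p-values of 0.952 and 0.987 in limma's test, with 95% intervals of -0.31 to 0.42 and -0.29 to 0.32.

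PSMB8, a catalytic subunit of the interferon-inducible immunoproteasome, had log2 intensities of 11.23, 11.35, 10.95 and 11.05 in orexin B slices, against 10.60, 11.68, 10.91 and 10.87 in untreated slices. Its untreated level on array 2 was the highest of the 8 values. The log2 ratios were 0.63, -0.33, 0.039 and 0.18, a mean of 0.13 ± 0.39 (SD, n = 4), and the mean was -0.035 without array 1 and 0.28 without array 2. All 3 probes were below 0 on array 2 and above 0 on the other arrays, with limma adjusted p-values from 0.792 to 0.994. Array 2 thus held the lowest ratios of TAP1 and PSMB8 and the highest of SLA-DRA and SLA-DQA1.

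Class I was then set against class II on each array, by the median of SLA-3, SLA-5 and B2M and the median of SLA-DRA, SLA-DQA1 and CD74. The class I median was 0.28, 0.24, 0.14 and 0.73 on arrays 1 to 4, a mean of 0.35 ± 0.26 (SD, n = 4). The class II median was 0.48, 0.96, -0.13 and 0.41, a mean of 0.43 ± 0.45 (SD, n = 4). The class II median was the value of SLA-DQA1 on all 4 arrays, so its spread is that of 1 gene, and CD74 had the smallest SD of the 8 genes (0.15). By probe, array 3 had medians of -0.0043 for class I and -0.054 for class II, with 7 of 16 class II probes above 0. The classes stood in opposite order on different arrays. Class I minus class II was -0.20 on array 1, -0.73 on array 2, 0.27 on array 3 and 0.31 on array 4, a mean of -0.086 ± 0.49 (SD, n = 4), so no difference between the classes beyond the spread of arrays was seen. That mean was 0.13 without array 2 and -0.22 without array 4. Without array 4 the class I mean was 0.22, and without array 2 the class II mean was 0.25. With the antigen chains alone (SLA-3 and SLA-5 against SLA-DRA and SLA-DQA1) the means were 0.36 and 0.48. The peptide supply pair had medians of 0.35, -0.29, -0.0084 and 0.27.

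Among the members, SLA-DRA and SLA-DQA1 were alike on the 4 arrays, as were SLA-3 and SLA-5. B2M and CD74 were not close to the chains of their class. Other measured chains were left out of this comparison, and SLA-DRB1 had log2 ratios of 1.08, 0.39, -0.18 and 0.27 in array order. The root mean square difference of the 4 log2 ratios was smallest between SLA-DRA and SLA-DQA1 (0.11) and next between SLA-3 and SLA-5 (0.13). All other pairs of members differed by at least 0.29, and SLA-DRA and PSMB8 by the most, 0.75. CD74 stood 0.46 from SLA-DQA1 and 0.56 from SLA-DRA, farther than it stood from PSMB8 (0.34), B2M (0.35) or TAP1 (0.36). B2M stood 0.30 from TAP1, 0.31 from SLA-3 and 0.32 from SLA-5.

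Other class I and class II genes on the array, from lists of antigen presentation genes, were also low on array 3 where they belonged to class II; apart from SLA-DRB1 and SLA-DMA they are named with their values known. Among the 7 measured class II chain genes, which add the beta chains SLA-DRB1 and SLA-DQB1, the peptide exchange genes SLA-DMA and SLA-DMB and their modulator SLA-DOA, 7 were above 0 on arrays 1, 2 and 4 and 0 on array 3. On array 3 they ran from -0.79 for SLA-DMB to -0.13 for SLA-DQA1, and each of the 7 had its lowest ratio there. Their highest ratio was on array 1 for 4 genes, among them SLA-DRB1 (1.08), and on array 2 for the other 3, among them SLA-DRA and SLA-DQA1. The mean of SLA-DRB1 was 0.39 ± 0.52 and that of SLA-DQB1 0.23 ± 0.58 (SD, n = 4), with smallest adjusted p-values of 0.645 and 0.749 in limma's test. SLA-DMA, with 0.58, 0.22, -0.48 and 0.22 on arrays 1 to 4, had a mean of 0.13. Of the 5 measured class I chain genes, with SLA-6 and SLA-8 added, all were above 0 on arrays 3 and 4, 4 on array 2 and 3 on array 1. The non-classical heavy chains SLA-6 and SLA-8 had means of -0.028 ± 0.22 and 0.12 ± 0.086 (SD, n = 4), below those of SLA-3 and SLA-5. SLA-7, CD1D and SLA-DOB were too dim to test.

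**Figure D4:**
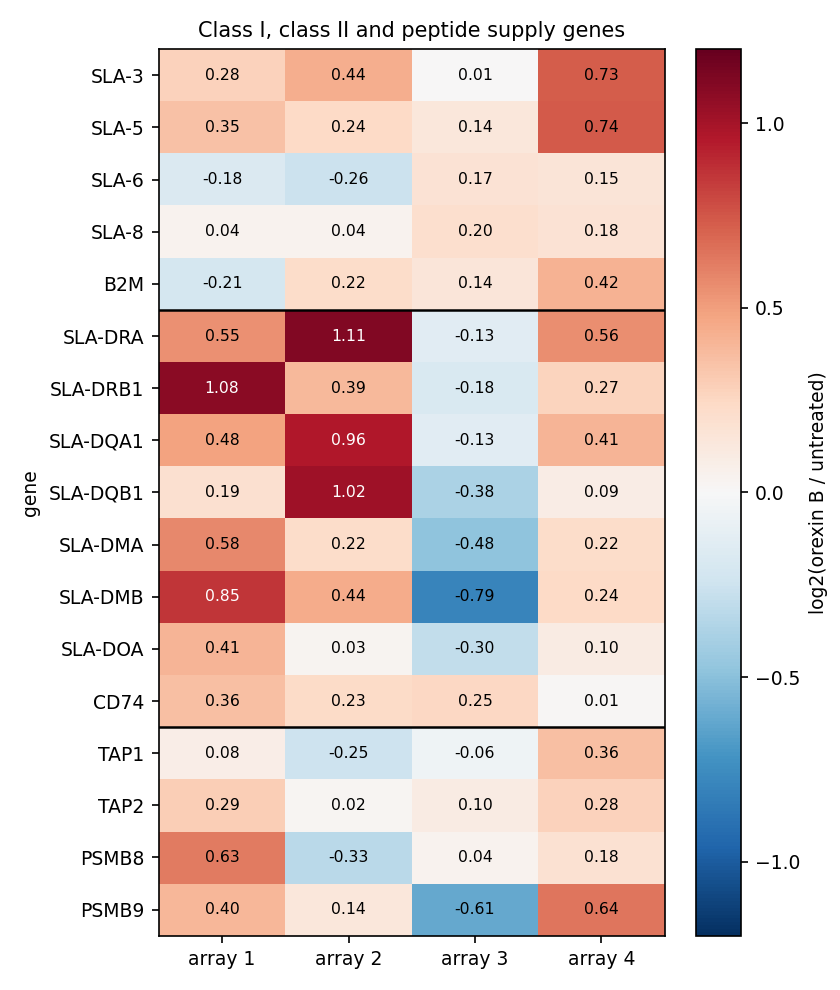
Log2 ratio of orexin B over untreated of 17 genes (rows) on arrays 1 to 4 (columns), red above 0 and blue below, with class I at the top, class II in the middle and peptide supply at the bottom. The 7 class II chain genes are blue on array 3 and red on the other arrays, CD74 is above 0 on every array, and the class I genes are above 0 on arrays 3 and 4.

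TAP2, PSMB8, TAP1 and PSMB9 stand next to each other in this order in the RefSeq gene table. All 4 were above 0 on arrays 1 and 4, and TAP2, PSMB8 and TAP1 had their lowest ratio on array 2. TAP2, the partner of TAP1, had log2 ratios of 0.29, 0.021, 0.10 and 0.28 on arrays 1 to 4, all above 0, with a mean of 0.17 ± 0.13 (SD, n = 4, smallest adjusted p = 0.702 in limma's test). PSMB9, another immunoproteasome subunit, had 0.40, 0.14, -0.61 and 0.64, with its lowest ratio on array 3.

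Across the antigen presentation lists without the members, 35 of 67 genes had a probe and 31 were tested. Of these, 19 had a mean above 0, where 54% of all named genes did. The median of the 31 was 0.12, against 0.018 over all named genes. In limma's test 1 gene reached an unadjusted p under 0.05 with a ratio above 0 and 0 did with a ratio below 0, against 8.59% and 5.2% of named genes. The 1 gene was CALR, calreticulin, a chaperone of the class I loading complex, with 0.98, 0.54, 0.86 and 0.58 on arrays 1 to 4 and a log2 ratio of 0.74 ± 0.13 (standard error, limma, adjusted p = 0.596). Among genes that control the antigens, IRF1, a transcription factor induced by interferons, had -0.20, -0.46, -0.66 and 0.60, a mean of -0.18 ± 0.55, and NLRC5, the class I transactivator, had a mean of -0.036 ± 0.069 (SD, n = 4 each). IRF1 was thus lowest on array 3, as the class II chains were, while NLRC5 was within 0.084 of 0 on every array. The log2 intensity of NLRC5 was low, 7.93 to 8.12 in orexin B slices and 7.93 to 8.20 in untreated slices. A ratio near 0 says little at that level. TAPBP and CIITA had no RefSeq probe and were not analysed here.

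The markers of cells in the slices are given array by array beside the antigen genes. The myometrium label was borne out by smooth muscle markers, of which 8 of 8 with a probe were tested, with a median log2 intensity of 14.15 to 15.43 over the orexin B channels and 15.08 to 15.75 over the untreated ones. The 8 had array medians of 0.18, -1.12, 0.24 and -1.05 in the log2 ratio. Macrophage and monocyte markers, of cells that carry class II, had 10 of 12 with a probe tested, and their medians were 0.56, 0.18, 0.86 and 0.65. The macrophage protein AIF1 was at 0.44, 0.24, 0.88 and 0.83 and the scavenger receptor CD163 at 0.0078, 0.40, 0.56 and 0.91. On array 2 some of the other tested markers were below 0, down to -0.55. Median log2 intensity of that list ran from 9.34 to 10.46 in orexin B slices and from 8.66 to 9.98 in untreated slices. From high to low, the arrays stood in the order 3, 4, 1, 2 in the macrophage median, the reverse of their order in the class II median (2, 1, 4, 3). That class II median was the value of SLA-DQA1 alone. The median of the 7 measured class II chain genes was 0.55, 0.44, -0.30 and 0.24, and CD74 had 0.36, 0.23, 0.25 and 0.011. Neither of these stood in the reverse order.

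Other marker lists were thinner. None of the 3 B cell markers with a probe was bright enough to test, and 3 of 9 T and NK cell markers were. Dendritic cell markers had 3 of 4 tested, with medians of 0.086, 0.17, 0.31 and 0.21, and the blood endothelium list (4 of 4) had 0.34, 0.018, 0.22 and 0.23. Epithelial markers (2 of 5 tested) had 0.28, -0.48, -2.00 and 0.82, so that the arrays stood in the order 4, 1, 2, 3, as they did in the class I median. The order in the endothelium list, 1, 4, 3, 2, was also that of the peptide supply pair. With 4 arrays and several lists, such matches of order are given as a description. The 14 measured interferon-stimulated genes had medians of 0.48, 0.89, 0.063 and 0.93, lowest on array 3. They were not uniform there, since single genes of this list ran from -1.05 to 0.34 on array 3. What part cell content had in the SLA ratios was not tested, and in such bulk RNA a change in the number of antigen-bearing cells and a change in RNA per cell cannot be told apart.

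**Figure D5:**
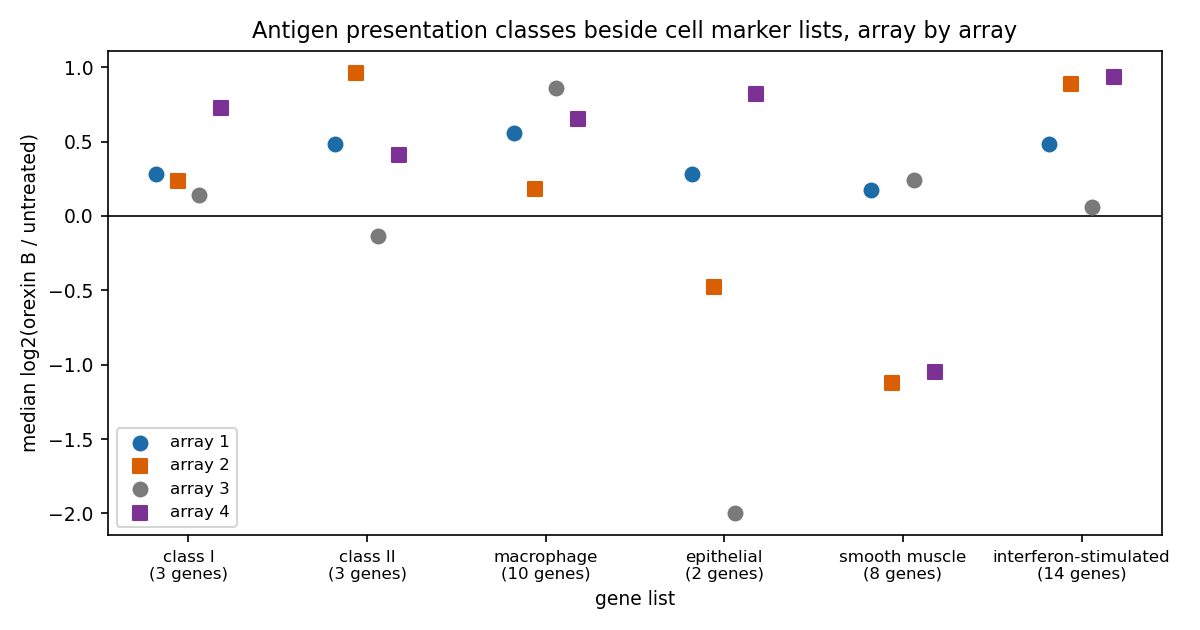
Median log2 ratio of orexin B over untreated (y axis) of class I, class II and 4 marker lists (x axis) on arrays 1 to 4; circles mark arrays 1 and 3, squares arrays 2 and 4. Class II is lowest on array 3 (-0.13), where macrophage markers are highest (0.86) and epithelial markers lowest (-2.00).

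Dye orientation was examined as well, since the smooth muscle medians split by it. The mean ratio of SLA-DRA was 0.21 where orexin B was in Cy5 and 0.84 where it was in Cy3, and that of SLA-3 was 0.14 and 0.58. CD74 and PSMB8 stood the other way, with 0.30 and 0.33 in Cy5 and 0.12 and -0.072 in Cy3. With dye as a further term in limma's model, 19 of the 32 probes had an unadjusted p under 0.05 and a ratio above 0, against 6.79% of all tested probes, and no probe passed the adjusted threshold. The dye part for SLA-DRA was -0.31 beside a treatment part of 0.52, and for SLA-3 -0.20 beside 0.38. No array was run in both orientations. The dye part therefore cannot be told apart from other differences between the Cy5 and the Cy3 arrays, such as their animals or the cells in their slices. Arrays 2, 3 and 4 shared a slide, and on these 3 arrays alone the class I mean was 0.37 and the class II mean 0.41.

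The genes outside all lists that lay nearest to each class on the 4 arrays were found among 1872 named genes by the root mean square difference of log2 ratios, as a description. Nearest to class I were RHCG, an ammonia transporter (0.067), ITGA2, an integrin chain (0.075), LGALS8, a galectin (0.078), DKC1, the pseudouridine synthase dyskerin (0.084), and the splicing factor SRSF10 (0.087). Near to class II were the apoptosis inhibitor XIAP (0.15), the cholesterol carrier STARD4 (0.15), the adaptor DOK2 (0.17) and the angiopoietin ANGPT2 (0.17). These class II neighbours were farther off than those of class I.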

How the data were processed

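The members and gene lists were chosen with earlier results of these data known. Per the file headers, Feature Extraction (Agilent, version 10.7.3.1) made the deposited intensity values: median brightness of each spot and its local background, and processed signals. It also wrote a deposited log10 ratio, Cy5 over Cy3. The deposited series table holds log2 ratios, matched to the processed signals within 0.01. In limma 3.58.1 (R 4.3.3), median signals were background-corrected by normexp (offset 50) and loess was fitted within arrays, giving control spots a weight of 0. Control and outlier spots were left out, and spots of a probe averaged. Tested were probes that the scanner marked well above background on each of the 4 arrays in one RNA, orexin B or untreated, with usable spots on at least 3. An intercept model (lmFit, eBayes, two-sided) gave p-values adjusted by Benjamini-Hochberg over 19879 probes, and was tested on simulated data. Levels per channel used Aquantile scaling. A gene's value is the mean over its tested probes.

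Probe accessions, versions removed, were looked up in RefSeq's gene table of Sscrofa11.1, which named 6700 of 43603 probes. The files name no genome build, so no coordinates are given. Every member is named. Other antigen presentation genes are named at an unadjusted p under 0.05 with a 1.2-fold change, or from a fixed list. Further class I and class II genes outside these rules were named with their values known. Alternatives covered background, normalization, source of values, filter, dye, probe choice, class membership and each array left out. Figures used matplotlib 3.10.9. A few genes of the lists are not reported here.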

Additional observations from a re-analysis of the deposited data

Results flagged for a closer look

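Of 54 sets of 4 array values examined for 1 array far from the others, 1 had such a value, where chance flags about 1 in 20 sets. The median of T and NK cell markers (3 genes) was -0.032 on array 2 against 0.074 to 0.094 on the others, a small distance in a list of which 6 of 9 genes with a probe were too dim to test.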

How the results depend on the processing

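The class I and class II means and their difference moved by less than the spread between arrays under every alternative that kept all 4 arrays. Leaving out 1 of 4 arrays cannot move such a mean by as much as that spread, so those runs are given as ranges only. The stricter filter and no filter kept every member probe, so they could not move these means at all. With dye orientation balanced, dye as a further term could not move the mean of a probe usable on all 4 arrays. The class II mean stayed at 0.43 with it. The sign of class I minus class II turned without array 2 (0.13, against -0.086). Without 1 array it ran from -0.22 to 0.13, the class I mean from 0.22 to 0.41 and the class II mean from 0.25 to 0.62. With median centring the class I mean was 0.18 and the class II mean 0.36. Directions of single genes that turned were those of B2M (-0.012) and TAP1 (-0.0081) with median centring, TAP1 without array 4 (-0.076) and PSMB8 without array 1 (-0.035). Without 1 array TAP1 ran from -0.076 to 0.13 and PSMB8 from -0.035 to 0.28. The 13 member probes at an unadjusted p under 0.05 became 0 with median centring and 6 with both Agilent's processed ratio and the deposited series table, and ran from 0 to 20 without 1 array. Over all probes, the 856 above 0 and 678 below 0 became 172 and 5 with median centring and 1349 and 1033 with dye as a further term, ran from 452 to 1071 and from 274 to 851 without 1 array, and 1095 were below 0 with no filter, which tests 43601 probes. The causes were not tested. Each array sets treated against untreated RNA, so the fit is paired within arrays, and no further replicate block was run. No setting gave a probe past the adjusted threshold, and 4 arrays limit what could be seen.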
